A study of Homo sapiens with 12 samples.

Results

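UBB, a gene that codes for ubiquitin, was among the most abundant RNAs of the esophageal cancer line KYSE510 and near absent from the line KYSE150. The genes described here are UBB, RP11-138I1.4 (annotated on the other strand within UBB), RPS27A, which also codes for ubiquitin, and UBA1, which activates it. They are 4 of the 38516 genes measured, and they were chosen by measured values: UBB was selected because its RNA is near absent in KYSE150, and the others for their relation to it. The difference between lines that chose them is therefore given as a description, with no test.

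The libraries come from 2 established human lines of esophageal squamous cell carcinoma, grown in RPMI-1640 with fetal bovine serum. Each line gave 3 control libraries and 3 with silencing of HCP5, a gene for a long non-coding RNA. The titles start with sh, an abbreviation the labels leave unexplained, and no label says whether replicates came from separate cultures. The p-values then measure only the spread between these libraries.

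Ubiquitin is a small protein that enzymes attach to other proteins, which marks many of them for breakdown by the proteasome and changes the place or activity of others. An E1 enzyme activates it, an E2 enzyme carries it, an E3 ligase helps pass it to the target and deubiquitinases take it off. UBB codes for a chain of ubiquitin units joined head to tail and is known as a stress-responsive source of ubiquitin. RPS27A codes for a single unit fused to a ribosomal protein.

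The table placed UBB at chromosome 17, 16380798 to 16382745 (GRCh38, plus strand, 1621 exon bases). RP11-138I1.4, named AC093484.3 in GENCODE release 29, is an antisense gene on the minus strand at 16382152 to 16382669. All 461 of its exon bases lie within exons of UBB, 386 in the coding sequence and 75 in the 3′ UTR. RPS27A spans 55231903 to 55235853 of chromosome 2 and UBA1 47190861 to 47215128 of chromosome X, both on the plus strand. RPS27A shares 177 exon bases with CLHC1 on the opposite strand, and UBA1 shares none with another listed gene.

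In the coding sequences of GENCODE release 29, UBB held 3 ubiquitin units of 76 residues and RPS27A 1. The units of both genes gave the same protein, but the bases of the unit of RPS27A differed from those of the first unit of UBB at 38 of 228 positions. Within UBB, the units after the first differed from it at 8 and 12 positions. UBBP4 is a pseudogene copy of UBB on chromosome 17. The best-matching stretch of its transcript differed from the first unit of UBB at 11 positions, with 95.2% identity. The first 60 bases of the first unit of UBB and RPS27A, and of that stretch of UBBP4, are shown 5′ to 3′. Capitals mark bases that differ from the first unit of UBB. The later units of UBB also differ from the first, so a capital alone does not set a read apart from UBB.
UBB: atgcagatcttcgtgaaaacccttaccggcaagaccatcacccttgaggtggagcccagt
RPS27A: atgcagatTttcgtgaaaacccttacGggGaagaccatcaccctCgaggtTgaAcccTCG
UBBP4: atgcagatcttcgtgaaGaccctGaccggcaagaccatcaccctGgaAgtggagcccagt
In this window UBBP4 differed from the first unit of UBB at 4 bases and RPS27A at 9.

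Depth ran from 20035025 to 28202422 reads per library, and in KYSE150 every silenced library was deeper than every control. Mitochondrial genes took 7.49% to 11.5% of reads, with higher shares in KYSE510. Levels are the deposited RPKM, a read count divided by exon length and library depth, and differences are on the log2(RPKM + 0.5) scale, which understates the change of low genes. Silenced libraries had less HCP5 than their same-numbered controls in 6 of 6 pairs, with changes of -0.45 (SE 0.20) in KYSE150 and -0.53 (SE 0.20) in KYSE510 and limma adjusted p-values of 0.267 and 0.646. All 8 squamous epithelial markers were measured, with a summed level of 982 to 2926 RPKM per library, and 0 of 5 leukocyte, 2 of 5 columnar epithelial, 1 of 5 fibroblast and 1 of 4 endothelial markers passed the filter for testing (0.5 RPKM or more in 3 or more libraries). The squamous marker PKP1 had 8.12 RPKM in KYSE150 controls but only 0.0746 in KYSE510 controls, and passed the filter through KYSE150. KRT5, KRT14 and KRT6A were also lower in KYSE510 controls, while TP63, KRT17, DSG3 and SFN were higher. The endothelial gene CDH5 had 0.0787 RPKM in KYSE150 controls and 1.55 in KYSE510 controls, and the fibroblast gene COL1A1 0.121 and 0.628.

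UBB had 340.4, 399.2 and 344.4 RPKM in the controls of KYSE510 and 354.6, 404.4 and 340.9 RPKM in its silenced libraries. The KYSE150 controls had 0.400, 0.0901 and 0.272 RPKM of UBB, and the silenced libraries 0.235, 0.131 and 0.229. Every KYSE510 library was high and every KYSE150 library low, with no overlap. The KYSE150 values rest on 3 to 13 reads per library and 52 reads in all 6, against 13274 to 16352 reads per library and 86364 in all 6 of KYSE510. Pooled over the 6 libraries of KYSE150, the level was 0.222 RPKM (exact 95% Poisson interval 0.166 to 0.291, counting error only). UBB was the 122nd most abundant of all genes in KYSE510 controls and ranked 17731st in KYSE150 controls.

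The control means of UBB were 361 ± 32.8 RPKM in KYSE510 and 0.254 ± 0.156 in KYSE150 (SD, n = 3), a ratio of 1422. In order, the group means of UBB were 367 ± 33.4 in KYSE510 silenced, 361 ± 32.8 in KYSE510 control, 0.254 ± 0.156 in KYSE150 control and 0.198 ± 0.0581 in KYSE150 silenced libraries (SD, n = 3). Within a line, the difference between the control and silenced means was smaller than the SD of either group. In bulk RNA, fewer cells with UBB RNA and less of it per cell cannot be told apart.

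RP11-138I1.4 followed the same pattern. The KYSE510 controls had 653, 781 and 663 RPKM of it, and the silenced libraries of that line 679, 804 and 687. The KYSE150 controls had 0.866, 0.106 and 0.478, and the silenced libraries 0.413, 0.0769 and 0.402, from 1 to 8 reads per library. The ratio of control means was 1447. In KYSE510 its reads were 54.4% to 57.3% of the number of UBB reads in each library, while its exons cover 28.4% of the exon bases of UBB. In KYSE150 it had 25 reads where UBB had 52, or 48.1%. The use of strand in counting is not given in the sources used here, so reads from UBB and reads from its antisense partner cannot be told apart.

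RPS27A, which codes for ubiquitin fused to a protein of the small ribosomal subunit, was present in both lines. The KYSE150 controls had 98.7, 100.5 and 122.5 RPKM, and the silenced libraries of that line 90.3, 106.1 and 107.1. The KYSE510 controls had 151.4, 169.4 and 178.2, and the silenced libraries 152.2, 143.7 and 154.1. All KYSE510 libraries were above all KYSE150 libraries, and the control mean was 1.55-fold higher. The log2 difference between control lines, 0.63, was the 5th highest among 32 genes of small-subunit ribosomal proteins, whose median was -0.01 and whose highest member was RPS29 with 1.36.

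UBA1, the main ubiquitin E1 enzyme, went the other way. KYSE150 controls had 26.71, 26.73 and 30.34 RPKM of UBA1, and silenced libraries 30.11, 34.75 and 34.31. KYSE510 controls had 20.06, 26.35 and 23.93, and silenced libraries 20.54, 22.28 and 22.10. The control mean was 1.19-fold higher in KYSE150, and all KYSE150 libraries lay above all KYSE510 libraries by a narrow margin, 26.71 against 26.35. UBA6, the other ubiquitin E1, had control means of 3.497 in KYSE150 and 3.15 in KYSE510, and its lines overlapped. For the members, 4 of 4 did not overlap between the 6 libraries of each line, beside 50.9% of the 17823 genes tested. This contrast chose the members, so nothing is read from that count.

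**Figure D1:**
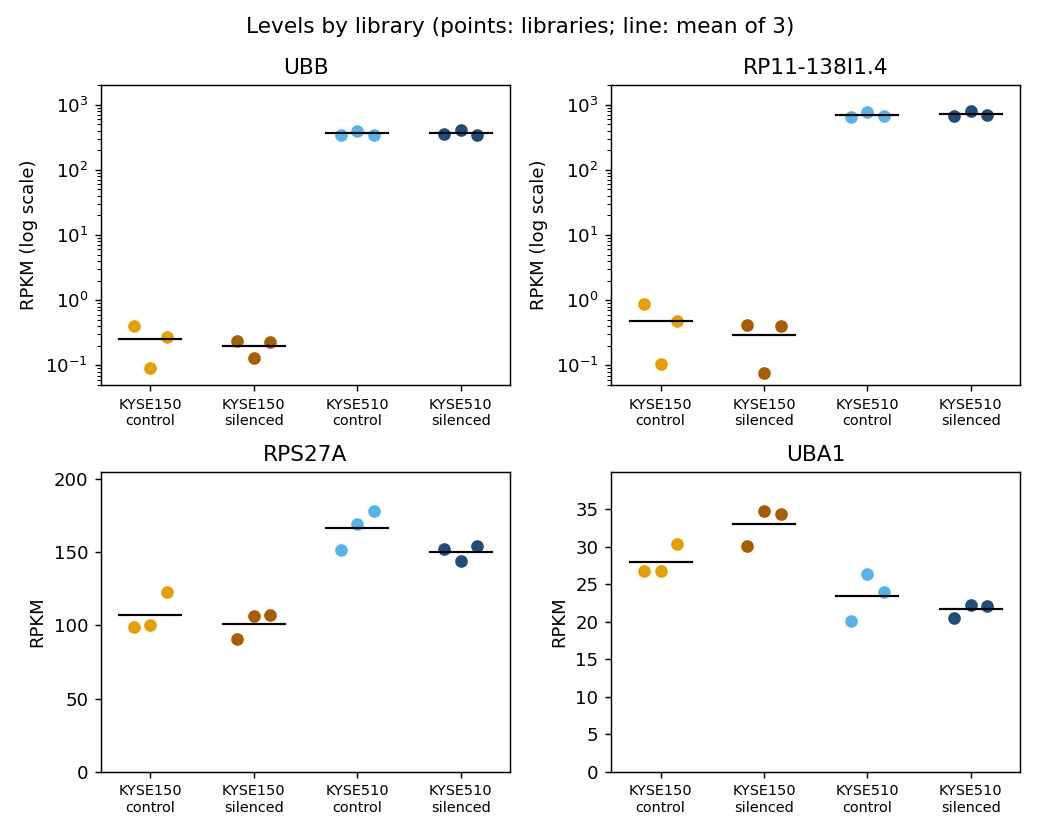
RPKM of the 4 members in each of the 12 libraries, by group on the x axis. Points are libraries and lines are means of 3, with log axes for UBB and RP11-138I1.4. UBB lies at or below 0.400 in KYSE150 and at or above 340.4 in KYSE510, while RPS27A and UBA1 are present in both lines.

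Near copies of these genes had low levels. UBBP4 had 0.0427 ± 0.0154 RPKM in KYSE150 controls and 2.74 ± 0.515 in KYSE510 controls (SD, n = 3). It followed UBB across lines, and its 585 reads in KYSE510 were 0.677% of those of UBB. RPS27AP1 had 2.35 RPKM in KYSE150 controls and 3.74 in KYSE510 controls, with overlapping lines. How reads that map to several places were treated is not given in the sources used here, so the split of reads between a gene and its near copy is uncertain.

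The surroundings of UBB on chromosome 17 were examined in both lines. Within 500 kb of UBB the table lists 39 genes, of which 24 had a mean of at least 0.5 RPKM in a line. Apart from the pair at UBB and a gene listed on several chromosomes, 21 were tested between control lines. Of these, 6 were higher in KYSE510, 6 were lower and 9 were not called, beside 28.3% higher and 33.7% lower over all genes. Their differences ran from -0.74 to 2.88 with a median of -0.15, and 16 of 21 lay within 1 on the log2 scale, against 8.92 for UBB and 9.55 for RP11-138I1.4.

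The nearest measured gene on one side was CENPV, a centromere protein gene 27.1 kb away, with 4.66 ± 0.380 RPKM in KYSE150 controls and 4.54 ± 0.494 in KYSE510 controls (SD, n = 3). Its difference was -0.04 (SE 0.11, limma adjusted p 0.798). PIGL, an enzyme gene of the anchor that holds some proteins on the membrane, overlaps the span of CENPV on the opposite strand. It was lower in KYSE510, with a difference of -0.36 (limma adjusted p 0.00923). On the other side FTLP12 and TRPV2, the closest genes, had at most 0.0397 RPKM in the controls of either line. Beyond them LRRC75A-AS1, 56.1 kb away, had 45.4 ± 4.62 RPKM in KYSE150 controls and 32.3 ± 1.81 in KYSE510 controls (SD, n = 3), a difference of -0.48. SNORD49B, a small nucleolar RNA gene within the span of LRRC75A-AS1, was higher in KYSE510, with 143 ± 41.8 RPKM in KYSE150 controls and 289 ± 61.0 in KYSE510 controls (SD, n = 3), a difference of 1.03 (limma adjusted p 0.00132).

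ZNF287, a zinc finger gene 169 kb from UBB, was listed at 0 in all 6 KYSE150 libraries and had 0.504 ± 0.0907 RPKM in KYSE510 controls (SD, n = 3). The pseudogenes KRT16P6, KRT16P2 and KRT17P1 lie 435 to 458 kb from UBB and were higher in KYSE510, by 1.34, 2.88 and 1.60. Each had a KYSE150 control mean of at most 0.129 RPKM. They are copies of keratin genes, so their reads are uncertain.

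**Figure D2:**
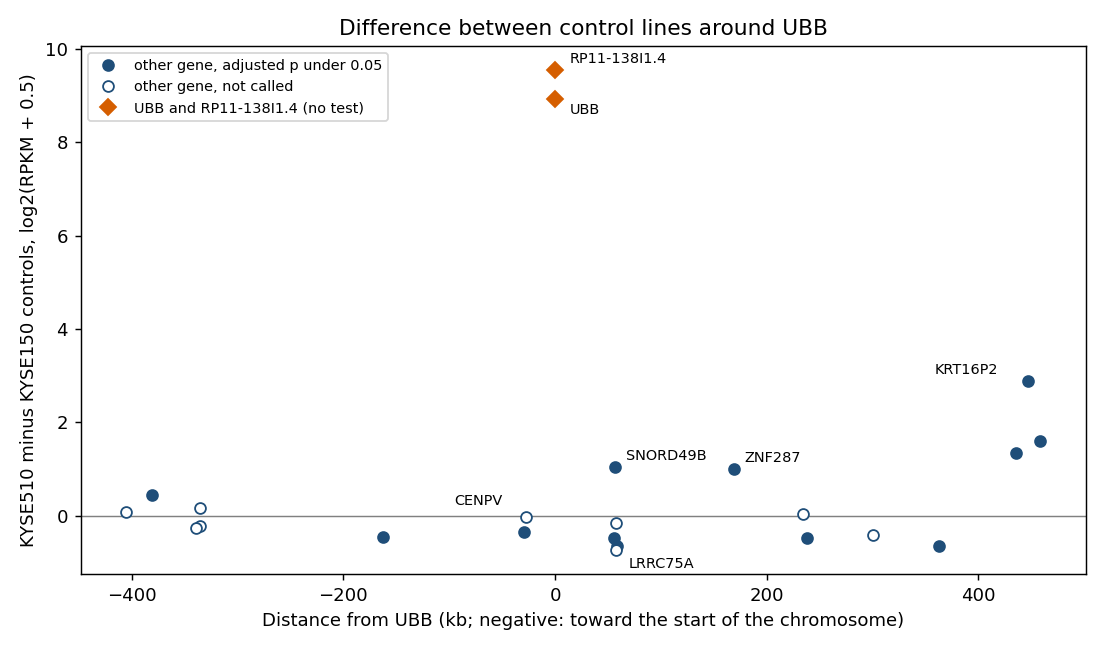
Difference between KYSE510 and KYSE150 controls in log2(RPKM + 0.5) (y axis) against distance from UBB in kb (x axis). Diamonds are UBB and RP11-138I1.4, circles are the 21 other genes, filled where the adjusted p was under 0.05. The circles lie between -0.74 and 2.88 and the diamonds at 8.92 and 9.55.

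The UBB reads left in KYSE150 were set beside those of other genes with the same contrast. The set was every gene with a control mean of at least 50 RPKM in KYSE510 and under 1% of it in KYSE150, which gave 23 genes with UBB and RP11-138I1.4. In KYSE150 controls UBB stood at 0.0703% of its KYSE510 control mean, with single libraries from 0.0249% to 0.111%, and RP11-138I1.4 at 0.0691%. In all, 8 of the 23 were under 0.1%. The others were ALDH3A1 at 0.0447%, FAM50A at 0.0496%, TCEAL9 at 0.0599%, AKR1C2 at 0.0617%, DHCR7 at 0.0668% and CTSL at 0.0868%. The remaining genes stood at 0.182% to 0.833%.

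These genes lie on chromosomes 9, 10, 11, 17 and X and have unlike roles: ALDH3A1 and AKR1C2 are detoxifying enzymes, DHCR7 makes cholesterol and CTSL is a lysosomal protease. The mirror set, high in KYSE150 and low in KYSE510, held 1 gene, MAGEA4 (a cancer-testis antigen), which stood at 0.0689% in KYSE510. Where these reads come from was not tested.

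**Figure D3:**
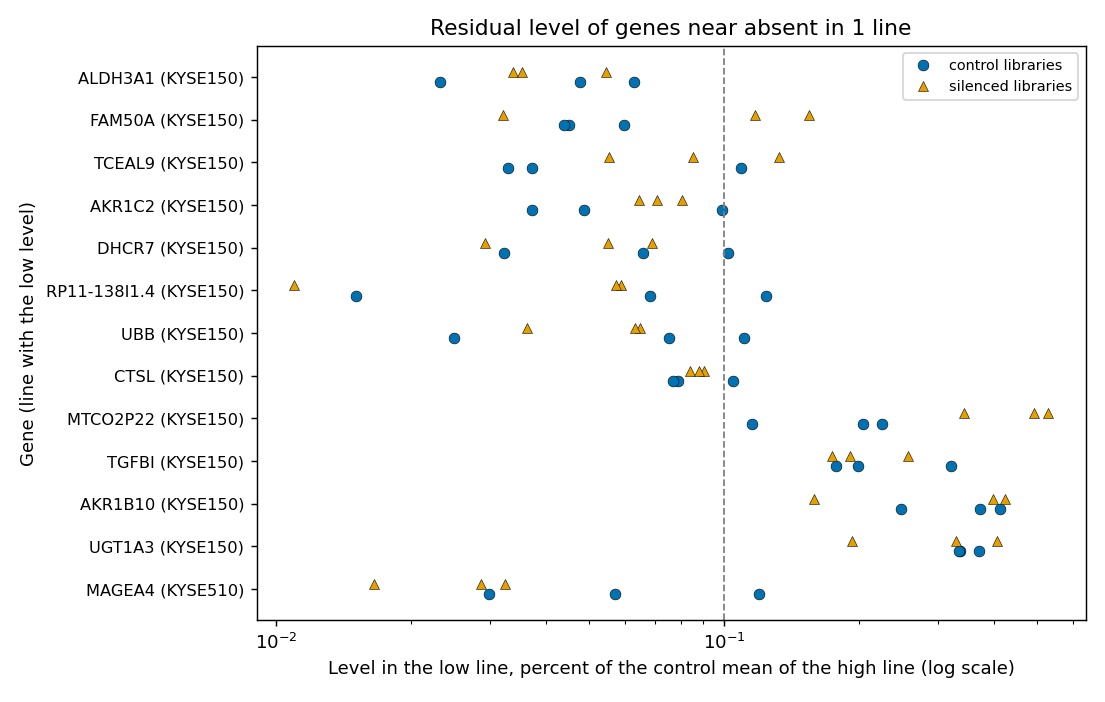
Level in each library of the low line as a percent of the control mean of the high line (x axis, log scale), for the 12 genes lowest in KYSE150 and for MAGEA4, low in KYSE510 (y axis). Circles are control and triangles silenced libraries. The control mean of UBB, 0.0703%, is among 8 under 0.1%, marked by the dashed line, and single libraries of UBB run from 0.0249% to 0.111%.

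By the Pearson correlation of log2 values over 12 libraries, among 4365 genes with a KYSE510 mean of at least 10 RPKM, the genes most like UBB were TCEAL8, RP11-138I1.4, UGT1A7, UGT1A6 and GPX2, with r from 0.9992 to 0.9996. The libraries fall into 2 lines, so these values describe the difference between lines. TCEAL8 had 0.0256 RPKM in KYSE150 controls and 23.4 in KYSE510 controls. By Euclidean distance on the same scale, the nearest were RP11-138I1.4 at 2.51, DHCR7 at 3.73, TCEAL9 at 3.77, AKR1C2 at 4.26 and AKR1B10 at 4.68.

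Silencing of HCP5 is the comparison of the study, and here the members were tested in each line with limma in a model over all 12 libraries. In KYSE150, 89 of 17823 genes were called (0.499%), 67 higher and 22 lower, and 0 of 4 members. UBB and its antisense partner passed the filter only through KYSE510 and had little room for a call in KYSE150. For them the KYSE150 counts of members called are no test of a response. In KYSE510, 7 genes were called (0.0393%), and 0 of 4 members. With a replicate block, which pairs same-numbered libraries, 1194 genes were called in KYSE150, 898 higher and 296 lower, and 20 in KYSE510, again with 0 of 4 members in each line. With each library centred on its median, the split in KYSE150 was 54 higher and 62 lower. The median change of all genes in KYSE150 was 0.08, and -0.05 after centring, so small changes in that line depend on the scaling. The part that the greater depth of the KYSE150 silenced libraries has in these changes was not tested.

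UBB gave -0.09 (SE 0.14, limma adjusted p 0.767) in KYSE150, and -0.22 after median centring, from 26 reads in each group. In KYSE510, where it rests on 44984 control and 41380 silenced reads, it gave 0.02 (SE 0.14, limma adjusted p 1). RP11-138I1.4 gave -0.26 (SE 0.26, limma adjusted p 0.623) in KYSE150, -0.39 there after centring, and 0.05 (SE 0.26, limma adjusted p 0.9998) in KYSE510. These SEs rest on a spread shared by all 12 libraries, not on that of the line named. Fitted on KYSE510 alone, the SE was 0.099 for UBB and 0.11 for RP11-138I1.4. On KYSE150 alone it was 0.16 and 0.34. UBB RNA was near absent in KYSE150 with and without silencing. UBB and RP11-138I1.4 passed the filter for testing only through KYSE510. In KYSE150 UBB was below the filter level of 0.5 RPKM in every library, and RP11-138I1.4 reached it only in control replicate 1, at 0.866. The scale used understates changes at such levels, so even a full loss had little room to be called. For these genes the lack of a call in KYSE150 does not show that silencing left them unchanged.

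RPS27A gave -0.08 (SE 0.10, limma adjusted p 0.710) in KYSE150, -0.21 there after median centring, and -0.15 (SE 0.10, limma adjusted p 0.925) in KYSE510. UBA1 gave 0.24 (SE 0.10) in KYSE150, with a limma unadjusted p of 0.0404 and adjusted p of 0.259, and 0.11 after median centring. Its silenced libraries lay above the controls except silenced replicate 1, at 30.11, which was below control replicate 3, at 30.34. In KYSE510 UBA1 gave -0.11 (SE 0.10, limma adjusted p 0.945), and -0.019 without control replicate 2.

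By limma, the difference of the silencing change between lines was called for 0% of genes and for 0 of 4 members. For UBB and its antisense partner this count is limited by their low levels in KYSE150. At an unadjusted p under 0.05 there were 2181 genes, and 4610 with the replicate block. UBA1 was among these genes without the block, with a difference of -0.34 (limma unadjusted p 0.0373, adjusted p 0.400). With the replicate block its limma adjusted p was 0.128.

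**Figure D4:**
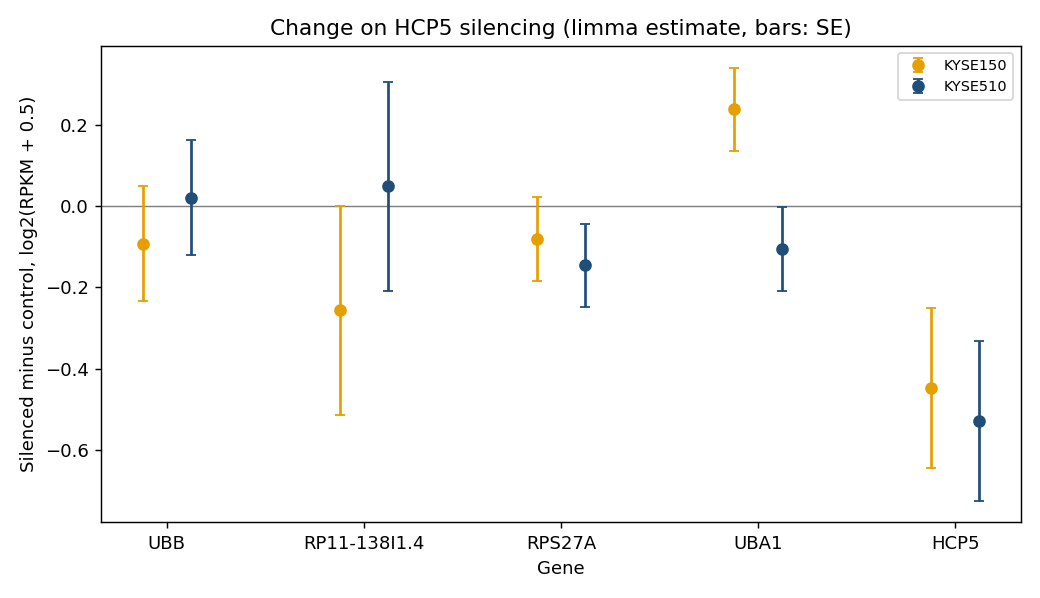
Change on HCP5 silencing in log2(RPKM + 0.5) (y axis) for the members and HCP5 (x axis), in each line. Points are limma estimates and bars their SE, from a spread shared by all 12 libraries. The members lie between -0.26 and 0.24, and none was called in either line. UBB and its antisense partner had little room for a call in KYSE150.

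The wider ubiquitin system was followed through lists of E1 and E2 enzymes, deubiquitinases, ubiquitin-like modifiers, proteasome subunits, shuttle proteins and small-subunit ribosomal proteins, 163 genes tested in all, 3 of them members. On silencing in KYSE150, 3 of 163 (1.84%) were called, beside 0.499% of all genes. UBE2K, an E2 enzyme that builds ubiquitin chains, was lower after silencing, at 23.8 ± 0.626 RPKM against 40.1 ± 5.24 in controls (SD, n = 3), a log2 change of -0.73 (limma adjusted p 0.0112). SUMO3, a ubiquitin-like modifier, rose from 30.3 ± 7.40 to 60.8 ± 8.22 RPKM (SD, n = 3), a log2 change of 1.01 (limma adjusted p 0.0217). RAD23B, which carries ubiquitin-tagged proteins to the proteasome, rose from 64.99 ± 7.34 to 96.7 ± 9.23 RPKM (SD, n = 3), a log2 change of 0.57 (limma adjusted p 0.0467).

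With the replicate block, 1194 of all 17823 genes were called in KYSE150, and 13 of the 163 listed genes (7.98%). Besides these 3 they were the E2 enzymes UBE2N (0.67), UBE2J1 (0.57), UBE2C (0.30) and CDC34 (0.30), the deubiquitinases TNFAIP3 (0.44), CYLD (0.33) and OTUD4 (0.28), the shuttle and unfolding genes NPLOC4 (0.39) and DDI2 (0.29), and the proteasome subunit PSMA4 (-0.30). Without KYSE150 control replicate 1 or 2 or silenced replicate 3, 0 of 163 were called by limma, beside 25, 17 and 15 of all genes. Without control replicate 3, 14 of 163 were called, beside 1287 of all genes. In KYSE510, 0 of 163 were called by limma, with and without the block. Without the block, 1 of 14 proteasome core genes and none of the other listed genes had an unadjusted limma p under 0.05. Over all 17823 genes, 1132 did.

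Between control lines, 107 of the 160 listed genes that are not members were called (66.9%), 52 higher and 55 lower in KYSE510, beside 28.3% and 33.7% of all genes. Of 31 E2 enzymes, 13 were higher and 6 lower, with a median of 0.26 beside -0.07 over all genes. UBE2L6, the E2 of the interferon-induced modifier ISG15, had the highest difference, with 4.07 ± 0.835 RPKM in KYSE150 and 18.6 ± 4.36 in KYSE510 controls (SD, n = 3). UBA7, the E1 of the same modifier, was higher by 2.20. UBE2G2, an E2 of protein breakdown at the endoplasmic reticulum, was lower (difference -0.93), as was UBA2, an E1 subunit for SUMO (-1.10).

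Of 32 deubiquitinases tested, 9 were higher and 15 lower in KYSE510, with a median of -0.17. USP14, which removes ubiquitin at the proteasome, had 13.3 ± 1.10 RPKM in KYSE150 controls and 60.8 ± 4.62 in KYSE510 controls (SD, n = 3), a difference of 2.15 (limma adjusted p 3.46e-09). UCHL5, which also acts at the proteasome, was higher by 0.73. CYLD, a deubiquitinase of inflammatory signalling, was lower (difference -1.78), as were UCHL3 (-1.36) and BAP1 (-1.18). UCHL3 shares 30.4% of its exon bases with RP11-29G8.3, which has the same strand, so their reads may be split.

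Of 14 genes of the proteasome core, 7 were higher and 2 lower, with a median of 0.25, and PSMA3 had the highest difference, 1.93. Of 19 genes of the regulatory particle, 3 were higher and 12 lower, with a median of -0.32, and PSMC5 had the lowest difference, -1.02. Its exons overlap those of FTSJ3 on the opposite strand over 19.5% of their bases. With median centring 9 of 19 were lower. Of 13 shuttle and unfolding genes, 5 were higher and 3 lower, among them SQSTM1, an autophagy receptor for ubiquitin-tagged proteins, higher by 1.28, and UBXN1, with a difference of -0.92. SQSTM1 shares 20.7% of its exon bases with C5orf45 on the opposite strand. Of 13 ubiquitin-like modifiers, 2 were higher and 6 lower, with SUMO3 at 0.93 and UFM1 at -1.19. Of 31 small-subunit ribosomal protein genes other than RPS27A, 12 were higher and 10 lower.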

How the data were processed

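Per the labels' protocols, TRIzol was used for total RNA and Illumina's standard preparation for the libraries. The authors deposited RPKM for each gene and library, and HISAT2, DESeq and GRCh38 are named in the submitters' processing notes. The annotation release, the use of strand and the treatment of reads at several places are not given in the sources used here. RPKM times exon length was a whole multiple of 1 step per library for 100% of values (within 0.02 reads), which gave the reads behind each value.

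The members and lists were chosen with earlier results of these data known. Log2(RPKM + 0.5) was fitted with limma 3.58.1 in R 4.3.3 (4 group means, trend, all 12 libraries, two-sided, Benjamini-Hochberg over the 17823 genes that reached 0.5 RPKM in 3 or more libraries, threshold 0.05). The script was tested on simulated data. Genes named are the members, their near copies, genes near UBB, up to 3 called genes per list and direction, the genes most like UBB, and those of lowest residual share. The genes called with the replicate block, SNORD49B, CDH5, COL1A1, the squamous markers and residual-share genes beyond that rule were named after their values were seen. Residual share and likeness were computed from the same RPKM. Ubiquitin units were counted in coding sequences of GENCODE release 29, not RefSeq proteins as first planned. A planned sum of RNA over ubiquitin units, and some genes under the naming rule, are not reported here.

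By the numbers in the titles, same-numbered control and silenced libraries deviated together from their group means across genes, with correlations of 0.147 to 0.415 in 6 pairs. Other numbers gave -0.385 to 0.184, so the numbers may pair the libraries. The ranges overlap: KYSE150 control 2 gave 0.184 with silenced 1 and 0.147 with silenced 2. The fit above has no replicate block, and the text also gives the blocked value for each count of genes called on silencing that the block changes.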

Additional observations from a re-analysis of the deposited data

How the results depend on the processing

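No member was called under any of up to 21 alternatives, and the smallest adjusted p by limma was 0.0814, for UBA1 in KYSE150 with the replicate block. The paired fit changed no call of a member, but it called 1194 genes in KYSE150 and 20 in KYSE510, and 13 listed genes in KYSE150. In KYSE150, quantile normalization called 154 genes, and a fit of that line alone called 7 genes and 0 listed genes by limma. In KYSE510 the counts were 3 with a pseudocount of 0.1, 44 with no filter, 11 with quantile normalization and 0 by limma for that line alone, with 1338 genes at an unadjusted p under 0.05. Leaving out 1 library gave 15 to 1287 genes in KYSE150, the lowest without silenced replicate 3 and the highest without control replicate 3, 2 to 7 in KYSE510 and 0 to 14 listed genes in KYSE150. The difference of silencing changes of RPS27A turned from -0.07 to 0.090 with median centring. Without 1 library the KYSE150 changes ran from -0.26 to 0.046 for UBB and -0.57 to 0.020 for RP11-138I1.4, both above 0 without control replicate 1, and -0.14 to 0.018 for RPS27A, above 0 without control replicate 3. The KYSE510 changes ran from -0.052 to 0.095 for UBB (below 0 without control replicate 1, control replicate 3 or silenced replicate 2) and -0.030 to 0.13 for RP11-138I1.4 (below 0 without silenced replicate 2), and the difference of silencing changes of UBB from -0.025 to 0.28. For UBA1 the KYSE510 change ran from -0.21 to -0.019, without control replicate 1 and 2, and the difference between control lines from -0.34 to -0.15, without the same libraries in reverse order. The cause of these shifts was not tested. UBE2K, SUMO3 and RAD23B kept their direction under all 21 alternatives and were called in 17, 16 and 8 of them. The 3 to 13 reads per library limit the precision of the UBB change within KYSE150. UBB and RP11-138I1.4 were tested in KYSE150 only through their KYSE510 levels, so for them the lack of a call there decides nothing.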
